A study of Mus musculus with 6 samples.

Results

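Hepa1-6 cells, an established mouse hepatoma line derived from a C57/L mouse, were profiled by RNA-seq after depletion of ribosomal RNA, and 9 genes for albumin, its relatives and other carrier proteins of blood plasma were followed. They were chosen by symbol, and all 9 are among the 25078 genes of the deposited tables. Untreated parental cells gave 1 library (wt), cells with a scramble lentiviral vector gave 2 (scr 25-2 and scr 50-1), and cells with a midnolin shRNA vector gave 3 (knockdown 25-3, 50-2 and 50-5). All groups grew in DMEM with fetal bovine serum. Transduced cells were selected with puromycin and single-cell-derived colonies were isolated by limiting dilution, so a library can stand for a clone as well as for its vector. The labels do not say whether each library is a separate clone, and they do not explain the numbers 25 and 50. The p-values below therefore measure only the spread between these libraries, and a change in the share of cells that express a gene cannot be told apart from less RNA per cell.

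Albumin carries fatty acids, hormones and bilirubin and sets the osmotic pressure of plasma. Alpha-fetoprotein (Afp), afamin (Afm) and the vitamin D binding protein (Gc) are its relatives by gene duplication, and alpha-fetoprotein is the main plasma protein of the fetal liver, silenced after birth and often switched on again in hepatocellular carcinoma. The fetuins (Ahsg and Fetub) belong to the cystatin superfamily, the alpha-1 antitrypsins (Serpina1a and Serpina1b) inhibit serine proteases, and Ambp encodes a precursor that is cleaved into the carrier alpha-1-microglobulin and the protease inhibitor bikunin. All are made mainly by hepatocytes, where HNF4, FOXA and C/EBP factors drive many of these genes.

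The albumin relatives lie together on chromosome 5 of mm10, and the promoters of Alb, Afp and Afm are shown because these neighbours all stood lower in every knockdown library than in both scr libraries. Alb (90460870 to 90476602), Afp (90490714 to 90508907) and Afm (90518949 to 90553544) follow each other on the plus strand, 14.1 and 10.0 kb apart, and Gc (89417511 to 89457898) lies 1003.0 kb before Alb on the minus strand. The 150 bases before each RefSeq transcript start (GRCm38.p6, the assembly called mm10) are given 5′ to 3′, at chr5:90460720-90460869 for Alb, chr5:90490564-90490713 for Afp and chr5:90518799-90518948 for Afm, all on the plus strand, with every match to the C/EBP or TATA letters named after them in capitals.
Alb: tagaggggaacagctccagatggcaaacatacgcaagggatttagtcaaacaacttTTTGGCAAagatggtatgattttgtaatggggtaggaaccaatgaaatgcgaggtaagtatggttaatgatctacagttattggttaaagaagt
Afp: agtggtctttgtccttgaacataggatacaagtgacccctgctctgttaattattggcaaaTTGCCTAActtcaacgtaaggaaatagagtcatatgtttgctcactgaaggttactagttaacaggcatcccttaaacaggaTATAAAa
Afm: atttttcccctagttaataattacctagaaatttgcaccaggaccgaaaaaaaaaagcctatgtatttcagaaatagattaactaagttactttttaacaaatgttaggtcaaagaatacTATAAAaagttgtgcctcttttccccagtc

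Motifs were searched on both strands in the 250 bases before the start, beside 32851 RefSeq promoters of the same length. The C/EBP letters TTNNGCAA matched in 4 of the 9 genes (Alb, Afp, Ahsg and Serpina1b) and in 9.56% of all promoters, and the TATA letters TATAAA matched in Afp, Afm and Fetub and in 12.4% of all. Counted from the start, with -1 the base before it, the C/EBP match lay at -94 to -87 in Alb and, on the opposite strand, at -89 to -82 in Afp, and the TATA match lay at -7 to -2 in Afp and at -30 to -25 in Afm. The HNF4 letters CAAAGTC matched in Alb, upstream of the printed stretch, and in Ahsg, and in 3.84% of all promoters, and the FOXA letters TGTTTAC matched in none of the 9 at these starts and in 3.17% of all. No match overlapped another in the printed stretches. A match says only that the letters are there.

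The libraries held 25586301 to 33119710 counted reads, and the targeted gene Midn had an RPKM of 59.6 and 50.8 in the scr libraries and 20.3, 21.8 and 22.1 in knockdown 25-3, 50-2 and 50-5 (log2 fold change -1.38 ± 0.133 SE, with an FDR of 0.00777 in the quasi-likelihood test of edgeR after Benjamini-Hochberg adjustment). RPKM is reads per kilobase of exon scaled to library depth, so it can be compared between genes. The test covered the 11577 genes that exceeded an RPKM of 1 in any of these 5 libraries, and a gene was called at an FDR under 0.05 and a fold change of at least 1.5. Midn differed little among the 3 knockdown libraries, from 36.7% to 40.0% of the scr mean. Of the 9 plasma protein genes, 7 were tested and Ahsg and Serpina1a stayed below the filter. Afm and Fetub were called lower and Serpina1b higher, which is 3 of 7, where 10.6% of all genes tested were called, 5.23% lower and 5.4% higher. Alb, Afp, Gc and Ambp were not called. At an unadjusted p under 0.05, 5 of the 7 genes were lower and 1 higher, where 31.5% of all genes tested passed that threshold, 16.5% lower and 15% higher. DESeq2 called 4 lower (Alb, Afm, Fetub and Ambp) and 2 higher (Gc and Serpina1b) beside 20.1% of all genes, 9.98% lower and 10.1% higher. Afm and Ambp passed the filter through scr libraries alone and Serpina1b through knockdown libraries alone, so their passing already required a difference. Of all genes tested, 4.11% passed through scr alone and 4.45% through knockdown alone. Which genes were called depended on the libraries. Without knockdown 25-3 they were Alb and Afp (2.24% of all genes called), without knockdown 50-5 Serpina1b (3.01%), and without knockdown 50-2 none by edgeR (1.14%). In that last fit 4 were lower and 1 higher at an unadjusted p under 0.05, where 10.8% of all genes tested were lower and 10.7% higher.

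**Figure D1:**
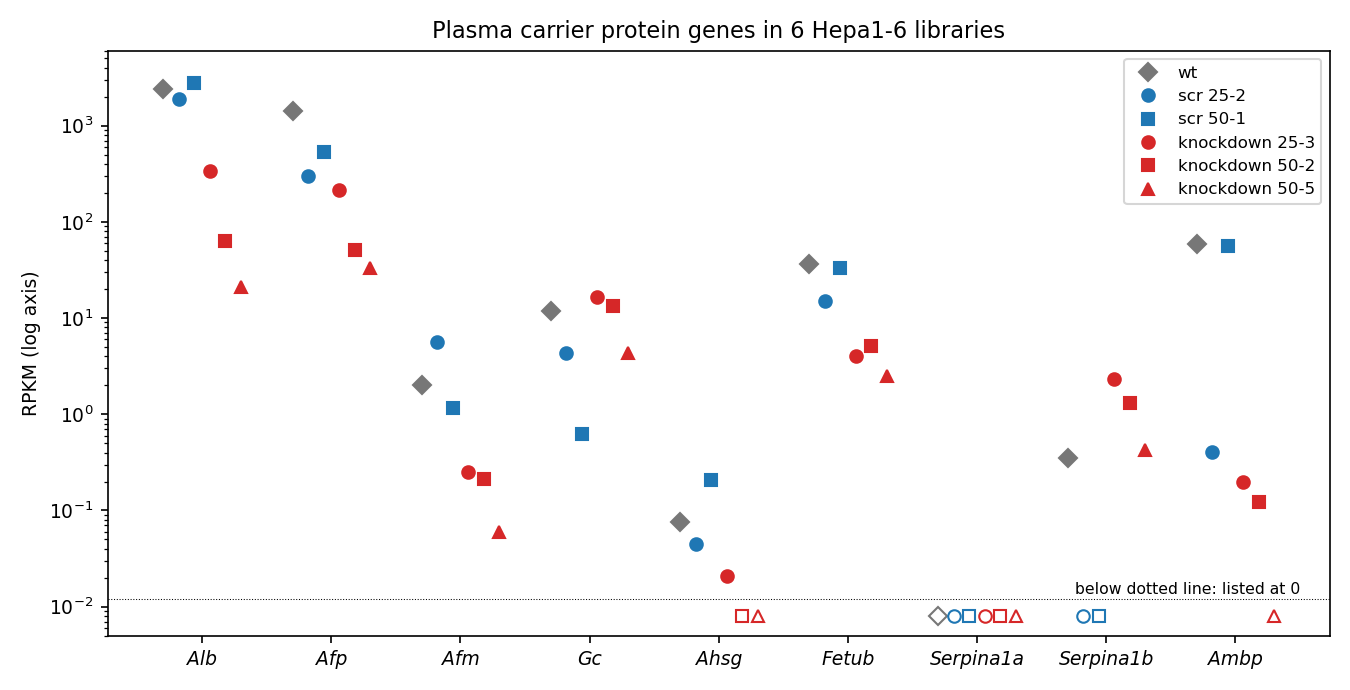
RPKM of each gene on a log axis in the wt library (grey), both scr libraries (blue) and the 3 knockdown libraries (red), with open symbols below the dotted line for libraries listed at 0. Alb in the knockdown libraries spans 20.9 to 336 RPKM, below 1877 and 2804 RPKM in scr.

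Alb was far lower in every knockdown library, and by very different amounts. Its RPKM was 1877 in scr 25-2 and 2804 in scr 50-1, against 336 in knockdown 25-3, 62.7 in knockdown 50-2 and 20.9 in knockdown 50-5, and it was 2424 in wt. The knockdown libraries thus held 14.3%, 2.68% and 0.891% of the scr mean, and the groups did not overlap. The mean was 140 ± 171 RPKM (SD, n = 3) in knockdown and 2341 ± 656 RPKM (SD, n = 2) in scr. Among all genes Alb ranked 4 in both scr libraries and 5 in wt by RPKM, but 80, 984 and 3589 in knockdown 25-3, 50-2 and 50-5. The fitted log2 fold change was -4.08 ± 1.12 (SE) with an edgeR FDR of 0.0712, so a difference of this size missed the threshold. On the log2(RPKM + 1) scale Alb ranged over 3.95 among the 3 knockdown libraries, where the median gene ranged over 0.28, and 0.00864% of the genes tested, which is Alb alone, had a range as large. Without knockdown 25-3, where Alb stayed highest, the log2 fold change was -5.82 and the FDR 0.0411 (edgeR), DESeq2 gave an FDR of 0.0128, and over 14 alternatives including those with other libraries left out it ranged up to 0.212. Midn lay between 20.3 and 22.1 RPKM in the same 3 knockdown libraries, and a relation between the levels of Midn and Alb was not tested.

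Afp followed the same order over the knockdown libraries on a smaller scale. Its RPKM was 302 in scr 25-2 and 533 in scr 50-1, and 212, 50.9 and 33.2 in knockdown 25-3, 50-2 and 50-5. Wt stood apart at 1430.1, which was 342% of the scr mean, whereas Alb in wt was 104% of it. Afp was the gene ranked 11 in wt and 2219 in knockdown 50-5. The log2 fold change against scr was -2.10 ± 0.801 (SE; edgeR FDR 0.143), which was not called. Knockdown 25-3 lay at 50.7% of the scr mean, not far below scr 25-2 at 72.3%, and without it the log2 fold change was -3.33 (FDR 0.0411, edgeR). Over the 14 alternatives the FDR ranged from 0.0411 to 0.3301.

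The knockdown libraries held a larger proportion of fetal to adult carrier mRNA than the scr libraries. The ratio of Afp to Alb RPKM was 0.161 and 0.190 in scr 25-2 and 50-1, whereas knockdown 25-3, 50-2 and 50-5 reached 0.631, 0.812 and 1.59. All 3 knockdown libraries lay above both scr libraries, and in knockdown 50-5 alone the Afp level exceeded that of Alb. The wt library, at 0.590, lay next to knockdown 25-3 and away from the scr libraries. On the log2 scale the ratio was -0.099 ± 0.689 (SD, n = 3) in knockdown and -2.51 ± 0.170 (SD, n = 2) in scr, a difference of 2.42. A two-sided exact permutation test, in which the one-sided p is doubled, gave p = 0.2. That is the smallest p this form of the test can give with 3 against 2 libraries.

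**Figure D2:**
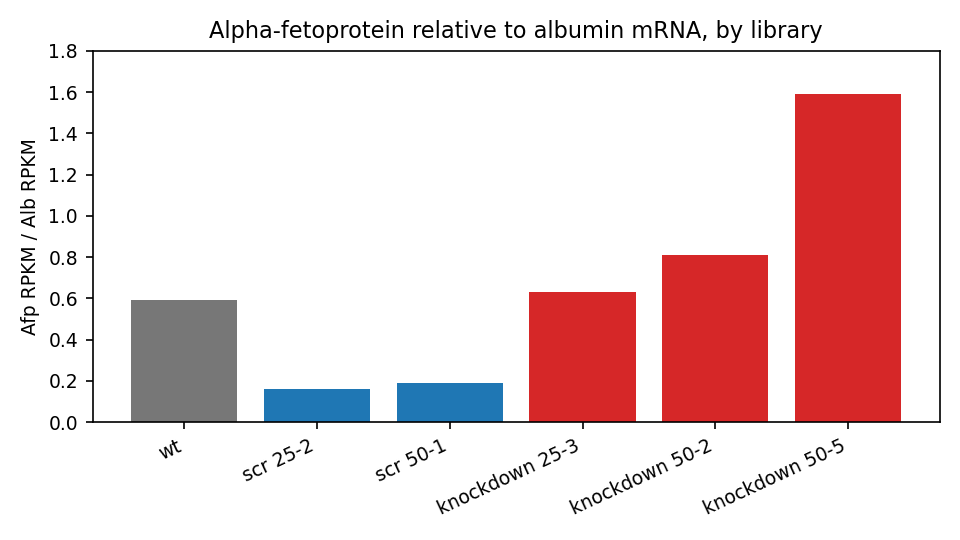
Afp RPKM divided by Alb RPKM in each library, with bars from 0 and 1 bar per library, so without error bars. The scr libraries stand at 0.161 and 0.190, the knockdown libraries between 0.631 and 1.59, and wt at 0.590.

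Afm, a carrier of vitamin E and of Wnt proteins, was the member of the cluster that passed the test. It was expressed weakly, with 5.60 RPKM in scr 25-2, 1.16 in scr 50-1 and 1.99 in wt, and 0.251, 0.214 and 0.0598 in knockdown 25-3, 50-2 and 50-5. These are 333 and 67 reads in the scr libraries and 16, 14 and 4 in the knockdown libraries. The log2 fold change was -4.28 ± 0.853 (SE; edgeR FDR 0.0359), and the groups did not overlap, although the scr libraries differed from each other by 4.81-fold. The call was lost when any knockdown library was left out, with FDRs from 0.0994 to 0.139 (edgeR). Without scr 25-2 the log2 fold change was -2.72 and still called, and the FDR ranged from 3.82e-05 to 0.139 over the 14 alternatives.

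Gc, which carries vitamin D metabolites and binds actin released from damaged cells, pointed the opposite way. Its RPKM was 4.29 in scr 25-2 and 0.620 in scr 50-1, and 16.5, 13.5 and 4.30 in knockdown 25-3, 50-2 and 50-5, with 11.8 in wt. Knockdown 50-5 was level with scr 25-2, so the groups barely avoided overlap, and wt lay within the range of the knockdown libraries. The log2 fold change was 2.20 ± 0.945 (SE; edgeR FDR 0.179), and it was not called. The value turned on the scr libraries: it was 4.203 without scr 25-2 (FDR 0.0399, edgeR, called), 1.40 without scr 50-1 (FDR 0.270, edgeR) and 1.04 with wt added to them (FDR 0.467, edgeR). DESeq2 called it (FDR 0.0334), and the FDR ranged from 0.0334 to 0.467 over the 14 alternatives. Within the knockdown libraries all 4 albumin relatives were highest in 25-3 and lowest in 50-5, Gc included. The plasma protein genes Ttr, Fgb and Igfbp1, from outside the family, had the same order.

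Genes around the cluster differed from each other in direction and size. Of 15 genes within 500 kb of Alb, 14 were tested and 3 were called, all lower, among them Afm, where 5.23% of all genes tested were called lower. Afm is itself among the 9 chosen genes and passed the filter through scr alone, so its place in this count already required a difference. The other called neighbours, Rassf6 and Cxcl15, exceeded the filter in both groups. Rassf6, 126.5 kb after Alb and coding for a Ras-association domain protein, had an RPKM of 52.5 and 57.1 in scr against 11.5, 15.0 and 11.2 in knockdown 25-3, 50-2 and 50-5 (log2 fold change -2.14, FDR 0.00602, edgeR). The chemokine gene Cxcl15, 317.9 kb after Alb, had 38.0 and 37.5 in scr against 10.6, 3.35 and 2.22 in knockdown (log2 fold change -2.83, FDR 0.0489, edgeR). Albfm1, a gene of the same family 84.6 kb after Alb and next to Afm, had 2.20 and 9.04 in scr against 1.40, 1.56 and 0.755 in knockdown (log2 fold change -2.19, FDR 0.0780, edgeR), which was not called. On the other side of Alb, Ankrd17 at -94.7 kb had a log2 fold change of -0.24 (FDR 0.231, edgeR), and Ppbp, a platelet chemokine gene 291.9 kb after Alb, had one of 1.94 (FDR 0.107, edgeR). The 1 gene tested near Gc, the bicarbonate transporter gene Slc4a4, had a log2 fold change of 0.15 (FDR 0.623, edgeR).

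**Figure D3:**
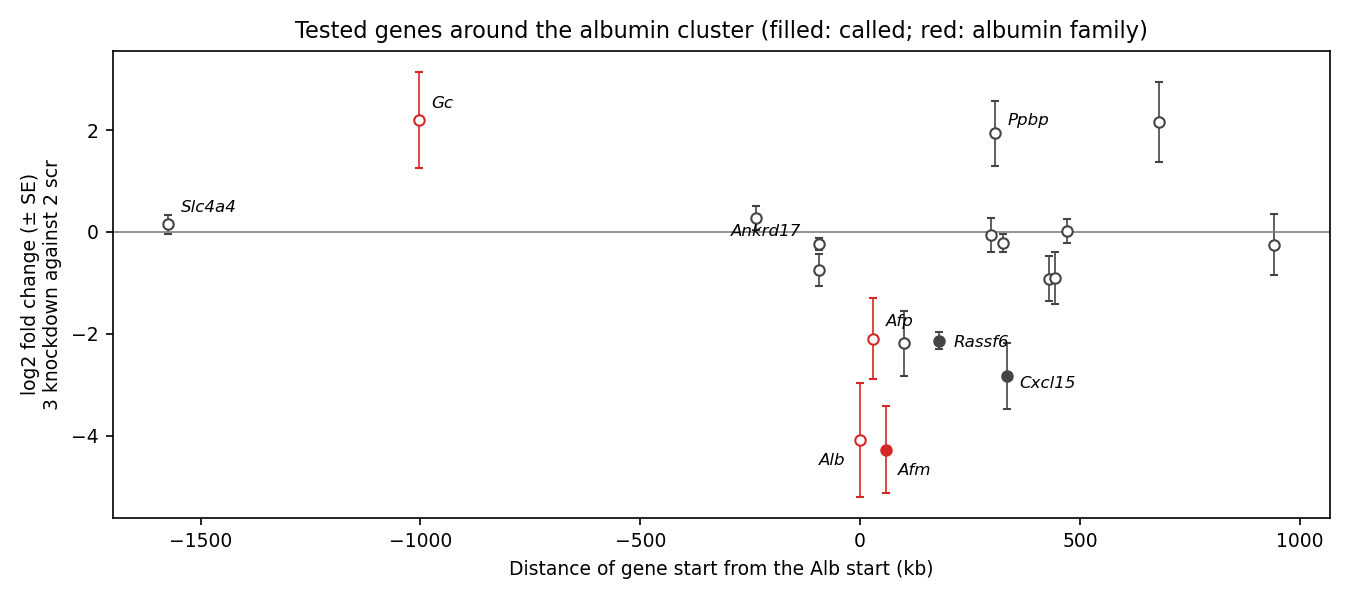
Log2 fold change (3 knockdown against 2 scr libraries, error bars of 1 standard error) of tested genes by the distance of their start from the Alb start in kb, with called genes filled and the albumin relatives in red. Alb, Afp and Afm lie between -4.28 and -2.10, Albfm1 (not called), Rassf6 and Cxcl15 are also low, and Gc stands at 2.20.

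The fetuins lie side by side on chromosome 16, Ahsg at 22892015 to 22899451 and Fetub at 22918382 to 22939768, 18.9 kb apart on the plus strand, and they were expressed at very different levels. Fetub, whose protein inhibits the egg protease ovastacin, had 15.1 RPKM in scr 25-2 and 33.4 RPKM in scr 50-1, then 4.01, 5.08 and 2.52 in knockdown 25-3, 50-2 and 50-5, with 36.4 in wt. All 3 knockdown libraries lay below both scr libraries, and unlike Alb they stayed within 2.01-fold of each other, at 3.87 ± 1.29 (SD, n = 3) against 24.3 ± 12.9 (SD, n = 2). The log2 fold change was -2.66 ± 0.425 (SE; edgeR FDR 0.0206), a fall of 6.32-fold. The direction held with each library left out, but the call was lost without any 1 of the knockdown libraries, with FDRs from 0.0678 to 0.0906 (edgeR), while DESeq2 gave 1.62e-07. Ahsg, the inhibitor of calcification that is among the most abundant fetal plasma proteins, was nearly silent, with 2 reads in scr 25-2, 9 in scr 50-1 and 3 in the wt library, while knockdown 25-3, 50-2 and 50-5 had 1, 0 and 0. It missed the filter, and an edgeR fit without the filter gave an unadjusted p of 0.0228 and an FDR of 0.133, so it was not called there either.

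The alpha-1 antitrypsin genes were almost off in all libraries, on the minus strand of chromosome 12. Serpina1a (103853295 to 103863619) had 0 reads in each of the 6 libraries, which allows up to 3 reads per library, an RPKM of about 0.0534 in scr. Serpina1b (103728156 to 103738189) had 0 reads in both scr libraries and 13 in wt, whereas knockdown 25-3, 50-2 and 50-5 had 105, 61 and 20. In RPKM this was 2.33, 1.32 and 0.424 in the knockdown libraries, at least 18.7-fold higher on average than 3 reads per scr library (FDR 0.0384, edgeR quasi-likelihood test). The call was lost when wt, which had 13 reads, was added to the scr libraries (FDR 0.103, edgeR), and without scr 50-1, knockdown 25-3 or knockdown 50-2 (FDR 0.0648, 0.0959 and 0.130, edgeR). Over the 14 alternatives the FDR ranged from 5.84e-05 to 0.130. These genes are near-identical copies, and 57.6% of the stretches of 50 bases in Serpina1a transcripts and 29.5% of those in Serpina1b also occur in another gene, against 0% for the other 7 genes, so the counts of single copies are uncertain. Serpina1c, Serpina1d and Serpina1e had at most 2 reads in any library. The sum over all 5 copies gave an FDR of 0.0372 in the same edgeR test, and summing them left the call as it was. For Serpina1b and for the sum, the call was also lost with the label number (25 or 50) as a term (FDR 0.0532 and 0.0537, edgeR). The same held with limma on log2(RPKM + 1) (FDR 0.0990 and 0.0934).

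Ambp (chromosome 4, 63143275 to 63154172, minus strand) differed more between the 2 scr libraries than any other of the 9 genes. Its RPKM was 0.402 in scr 25-2 and 56.5 in scr 50-1, a 141-fold difference, and 59.4 in wt. The knockdown libraries had 0.200, 0.122 and 0 in 25-3, 50-2 and 50-5, from 8, 5 and 0 reads against 15 in scr 25-2 and 2041 in scr 50-1. Scr 25-2 thus sat with the knockdown libraries, and scr 50-1 with wt. Of the genes tested, 0.0173% differed between the scr libraries by as much on the log2(RPKM + 1) scale. The fitted log2 fold change of -8.03 ± 2.05 (SE; edgeR FDR 0.0612) was not called, it was -9.01 and called without scr 25-2 (FDR 0.00289, edgeR), and without scr 50-1 the gene was below the filter. With limma the difference was -4.83 on the log2(RPKM + 0.1) scale and -3.02 on the log2(RPKM + 1) scale, and neither was called. DESeq2 called it (FDR 0.00552), and the FDR ranged from 0.00289 to 0.208 over the 13 alternatives that could be fitted. Itih2, which encodes a heavy chain that is joined to bikunin, fell from an RPKM of 323 and 386 in scr to 154, 133 and 71.8 in knockdown 25-3, 50-2 and 50-5 (log2 fold change -1.58, FDR 0.0368, edgeR).

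**Figure D4:**
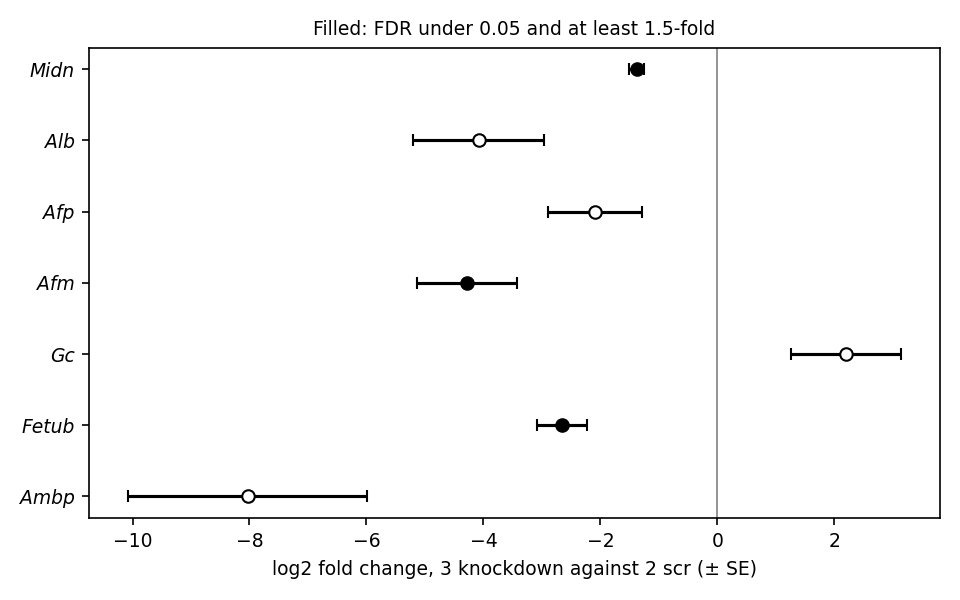
Log2 fold change of 3 knockdown against 2 scr libraries with error bars of 1 standard error, filled where the gene was called, for Midn and the tested genes other than Serpina1b, for which only a lower bound can be given. Midn (-1.38) has a standard error of 0.133, while those of Alb, Afp, Gc and Ambp lie between 0.801 and 2.05.

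Counted over the 7 tested genes, 5 had all 3 knockdown libraries below both scr libraries and 2 had them above, where 24.5% and 25.7% of all genes tested did. Among them Afm, Ambp and Serpina1b had passed the filter through 1 group alone, and of the 4 others Alb, Afp and Fetub lay below and Gc above. Alb and Afp together made up between 84.9% and 98.8% of the summed RPKM of the 9 genes in every library. That sum was 2205 and 3429.8 in the scr libraries, 3964 in wt, and 571, 134 and 61.3 in knockdown 25-3, 50-2 and 50-5. The level order was Alb, then Afp, in every library but knockdown 50-5, where Afp (33.2) came before Alb (20.9). Next came Ambp in wt and scr 50-1, Fetub in scr 25-2 and Gc in all 3 knockdown libraries.

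The genes whose level over the 6 libraries was most like that of Alb were Lbp, Ttr and Fgb, with a root mean square difference of 0.907, 0.935 and 0.985 between the centred log2(RPKM + 1) values, over which Alb itself ranged by 7.00. Lbp, the lipopolysaccharide binding protein, had an RPKM of 103 and 241 in scr against 5.05, 4.43 and 1.72 in knockdown 25-3, 50-2 and 50-5. Ttr, the plasma carrier of thyroxine and of retinol binding protein, had 119 and 131 in scr against 2.59, 0.887 and 0.223 in knockdown. Fgb, the fibrinogen beta chain, had 131 and 460 in scr against 46.7, 34.8 and 7.64 in knockdown. For Afp they were Iigp1, an interferon-induced GTPase, Cxcl15 and Igfbp1, an insulin-like growth factor binding protein, at 0.521, 0.624 and 0.636. Igfbp1 had an RPKM of 579 and 907 in scr against 281, 120 and 72.3 in knockdown 25-3, 50-2 and 50-5. These values share the same 6 libraries, and the likeness was not tested.

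Of 21 other carriers, 11 were tested, 3 were called lower and 0 higher by edgeR, with 7 lower and 0 higher at an unadjusted p under 0.05 and 7 and 0 called by DESeq2. Of all genes tested, 5.23% were called lower by edgeR and 9.98% by DESeq2, and 16.5% were lower at an unadjusted p under 0.05. Besides Ttr (log2 fold change -6.68, FDR 0.0121, edgeR), these were Igfals, the acid-labile subunit that holds insulin-like growth factors in plasma, with an RPKM of 1.34 and 0.691 in scr against 0, 0.0259 and 0.0126 in knockdown (FDR 0.0126, edgeR), which passed the filter through scr alone, and the copper carrier ceruloplasmin (Cp) at -3.37 (FDR 0.0139, edgeR). Rbp4, the plasma retinol carrier, did not follow, with an RPKM of 320 and 335 in scr against 415, 375 and 285 in knockdown 25-3, 50-2 and 50-5 (log2 fold change 0.11, FDR 0.710, edgeR). Of 22 other protease inhibitors, 9 were tested, and 4 were called lower and 0 higher, with 5 lower and 0 higher at an unadjusted p under 0.05 and by DESeq2. They were heparin cofactor II (Serpind1, log2 fold change -5.38, FDR 0.00893, edgeR), kininogen (Kng1, -4.20, FDR 0.0497), Itih2 and cystatin C (Cst3, -0.88, FDR 0.0460). The median log2 fold change was -2.25 over the carriers and -1.58 over the inhibitors, beside -0.0097 over all genes tested. Igfals among the carriers and 4 of the 9 inhibitors (Serpind1, Kng1 and Spink1 by scr, Serpinf2 by knockdown) had passed the filter through 1 group alone. Without them the medians were -1.73 over 10 carriers and -0.88 over 5 inhibitors.

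Of 28 tested genes for factors known to act on the albumin locus, Dbp alone was called by edgeR. Dbp, a PAR bZIP factor named for its binding to the albumin promoter, was lower, with an RPKM of 2.15 and 3.68 in scr against 1.17, 0.867 and 0.936 in knockdown 25-3, 50-2 and 50-5 (log2 fold change -1.56, FDR 0.0462, edgeR). None was called higher by edgeR, while 2 were higher and 8 lower at an unadjusted p under 0.05, and DESeq2 called 6 lower and 1 higher. Of all genes tested, 5.23% were called lower and 5.4% higher by edgeR, 9.98% lower and 10.1% higher by DESeq2, and 16.5% were lower and 15% higher at an unadjusted p under 0.05. Cebpa had 9.82 and 5.07 in scr against 4.63, 4.19 and 1.36 in knockdown (log2 fold change -1.15, FDR 0.220, edgeR). Foxa1 had 5.99 and 14.6 in scr against 1.92, 1.99 and 4.27 in knockdown (log2 fold change -1.92, FDR 0.0676, edgeR, not called). Foxa2 and Foxa3 had log2 fold changes of 0.09 and -0.51 (FDR 0.764 and 0.153, edgeR). Hnf4a had 33.9 and 11.04 in scr against 65.5, 65.4 and 29.6 in knockdown (FDR 0.206, edgeR), so the groups overlapped. Of the repressors of Afp, Zhx2 overlapped between groups (log2 fold change -0.27, FDR 0.513, edgeR), and Zbtb20 had 54.9 and 39.9 in scr against 25.4, 31.7 and 31.8 in knockdown (FDR 0.0757, edgeR). The median over these genes was -0.39.

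Of 9 tested genes for receptors and handling of plasma proteins, 4 were called lower and 0 higher, with the same numbers at an unadjusted p under 0.05 and by DESeq2. Among them Fcgrt, the heavy chain of the receptor that rescues albumin from breakdown, had an RPKM of 25.7 and 21.6 in scr against 16.0, 14.3 and 12.3 in knockdown 25-3, 50-2 and 50-5 (log2 fold change -0.75, FDR 0.0473, edgeR). Its partner B2m had a log2 fold change of -0.079 (FDR 0.728, edgeR). The others were Lrp1, a scavenger receptor (-2.52, FDR 0.00212, edgeR), Cyp27a1, a sterol and vitamin D hydroxylase (-1.91, FDR 0.00777), and the insulin receptor Insr (-0.89, FDR 0.0173). Of 27 genes for folding and export from the endoplasmic reticulum, the disulfide isomerase Pdia6 (-0.996, FDR 0.0172, edgeR), Tmed10 (-0.97, FDR 0.0157) and Lman1 (-0.79, FDR 0.0316), which carries alpha-1 antitrypsin and clotting factors out of the endoplasmic reticulum, were called lower. None of these 27 was called higher, with 2 higher and 5 lower at an unadjusted p under 0.05 and 4 lower and 0 higher by DESeq2. For both lists, the shares of all genes tested were 5.23% called lower by edgeR, 9.98% called lower by DESeq2, and 16.5% lower and 15% higher at an unadjusted p under 0.05. The median log2 fold change was -0.56 over the receptor list and -0.18 over the export list.

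**Figure D5:**
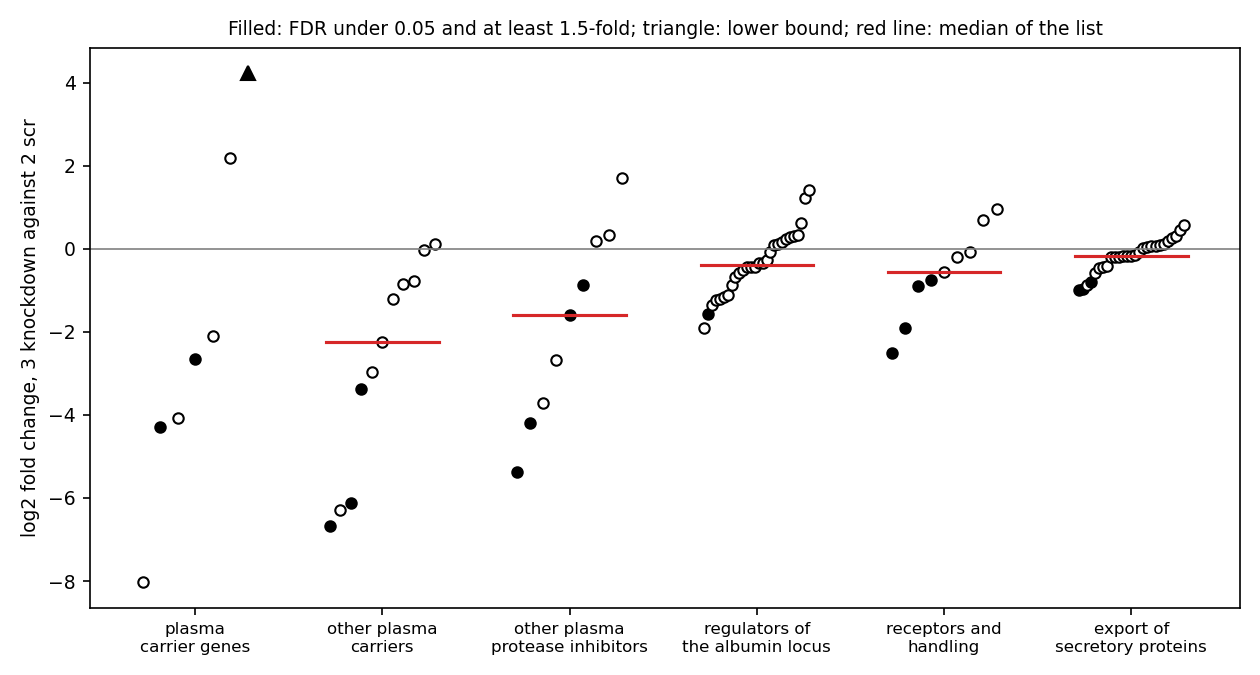
Log2 fold change (3 knockdown against 2 scr libraries) of every tested gene in 6 lists, filled where called, with the median of each list other than the first as a red line and Serpina1b as a triangle at its lower bound of 4.23. The other carriers and protease inhibitors have medians of -2.25 and -1.58 (-1.73 and -0.88 without genes that passed the RPKM filter through 1 group alone), with genes above 0 in both lists. The regulators and export genes have medians of -0.39 and -0.18.

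As to cell identity, the summed RPKM of 15 hepatocyte markers outside the 9 genes, of which Ttr and Apoh are also in the carrier list, was 755 and 1278 in scr and between 755 and 1521 in knockdown. Its most abundant member was the keratin gene Krt18, at 408 and 535 in scr against 821, 1159.8 and 632 in knockdown 25-3, 50-2 and 50-5. Krt8, also a keratin gene, had 55.6 and 114 in scr against 111, 220 and 79.2 in knockdown. The keratin genes thus weigh heavily in the sum, which does not show how the other markers changed. Fgb, given above, was lower in all knockdown libraries (FDR 0.0600, edgeR, not called), whereas Apob, the apolipoprotein of very low density lipoprotein, had 3.00 and 1.07 in scr against 52.2, 37.8 and 4.37 in knockdown (FDR 0.0822, edgeR, not called). Krt8 and Hnf4a were also expressed in all libraries, and Apoc3 was at 0 in all. Of the 10 tested, Ttr and the fibrinogen alpha chain gene Fga were called lower and 0 higher by edgeR, with 4 lower and 2 higher at an unadjusted p under 0.05 and 3 and 2 by DESeq2. Over all genes tested these shares were 5.23% lower and 5.4% higher by edgeR, 16.5% and 15% at an unadjusted p under 0.05, and 9.98% and 10.1% by DESeq2. Fga passed the filter through scr alone. Of 7 leukocyte markers, summing to 4.28 and 5.03 in scr and 8.66 to 13.7 in knockdown, none of 2 tested was called by edgeR (0 lower and 1 higher at an unadjusted p under 0.05, 1 higher by DESeq2), Cd3e was at 0 in all libraries and Ptprc had at most 30 reads. The 2 tested were the macrophage markers Cd68, at 3.02 and 4.53 in scr against 6.22, 6.88 and 9.21 in knockdown (FDR 0.0989, edgeR), and Csf1r, at 1.12 and 0.0725 in scr against 2.26, 2.33 and 4.27 in knockdown (FDR 0.192, edgeR). Neither overlapped between groups, where 25.7% of all genes tested had all knockdown libraries above both scr libraries. Csf1r had 128 and 8 reads in the scr libraries. Itgam, below the filter, had 16 and 44 reads in scr against 12, 10 and 14 in knockdown. Of 8 fibroblast markers, which summed to 594 and 562 in scr and 411 to 576 in knockdown and were mostly Dcn, 2 were tested. Pdgfra, which passed the filter through knockdown alone, was called higher (log2 fold change 3.10, FDR 0.0140, edgeR), and Dcn was not called (-0.28, FDR 0.336, edgeR). The 6 endothelial markers summed to at most 0.529 in scr and knockdown. The 6 biliary markers summed to 565 and 204 in scr and 379 to 554 in knockdown. Of the 4 tested, Krt7 alone was called, and it was lower (-3.44, FDR 0.0133, edgeR). Sox9, Spp1 and Epcam overlapped between groups (log2 fold change 0.46, 0.30 and -0.12). The shares of all genes given above for the hepatocyte markers apply to these lists as well. The part of these differences in the results above was not tested.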

How the data were processed

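RNA-seq libraries after depletion of ribosomal RNA came from 1 wt, 2 scr and 3 midnolin knockdown samples of Hepa1-6 cells, grouped by their labels. Per the labels and the study's methods, the authors aligned reads to mm10 with TopHat2 (bcl2fastq 2.18.0.12 for base calls) and deposited counts per gene from HTSeq (0.6.1p1 in the submitters' processing notes); the strand setting was not given in the sources used here. The authors also deposited RPKM values per gene, which equal the counts divided by exon length and by 1 factor per library. The labels do not say which knockdown libraries the study's named shRNA clones are, so all 3 entered.

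Counts of 3 knockdown and 2 scr libraries were tested with the edgeR 4.0.16 quasi-likelihood test (R 4.3.3, TMM scaling) over the 11577 of 25078 genes that exceeded an RPKM of 1 in any library, with Benjamini-Hochberg adjustment (FDR) over all of them. Called means an FDR under 0.05 and a fold change of at least 1.5. The row for Rn45s, a ribosomal RNA precursor, held 10.1% to 13.1% of counts. Totals of 25586301 to 33119710 counts set the precision, floors of 3 counts cover counting error only, and the number of libraries limits it further (common biological coefficient of variation 0.2721). Alternatives were DESeq2 1.42.0, other scalings and filters, limma 3.58.1 on log2(RPKM + 0.1) and log2(RPKM + 1), the 25 or 50 of the labels as a term, wt added to scr, and each library left out.

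The genes, lists and tests were chosen with earlier results of these data known. Named genes are the 9 chosen, Midn, the other Serpina1 copies, genes within 500 kb, up to 4 called genes per list with the largest change, and the 3 genes nearest to Alb and Afp over the 6 libraries; Ahsg varied too little for such a match. Genes named without a call (Rbp4, Cebpa, Foxa1, Foxa2, Foxa3, Hnf4a, Zhx2, Zbtb20, B2m, Krt8, Krt18, Apob, Apoh, Apoc3, Spink1, Serpinf2, Cd3e, Ptprc, Cd68, Csf1r, Itgam, Dcn, Sox9, Spp1 and Epcam) were chosen after their values were seen. Sharing of 50-base stretches was counted over GENCODE M21 transcripts. Promoters are from RefSeq (GRCm38.p6), where all 9 genes matched by symbol and had a start equal to that of the deposited coordinates.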

Additional observations from a re-analysis of the deposited data

How the results depend on the processing

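Midn, the 7 tested plasma protein genes and the summed Serpina1 copies kept their direction under every alternative that could be fitted; the other lists were counted again by DESeq2 alone, neighbours and the Afp to Alb ratio were not refitted, and the cause of the shifts below was not tested. The number of genes called was 1230, against 2322 with DESeq2, 807 with the label number (25 or 50) as a covariate, and 131 (without knockdown 50-2) to 2273 (without scr 25-2) with 1 library left out. Alb passed the threshold with DESeq2 at -4.08, with limma on log2(RPKM + 0.1) at -4.91, with limma on log2(RPKM + 1) at -4.88 and with wt added at -4.09. Ambp passed with DESeq2 at -8.06 and with wt added at -8.47, and Gc with DESeq2 at 2.21. Uncalled as before, Ambp was smaller with limma, at -4.83 with a pseudocount of 0.1 and -3.02 with 1, Gc was 1.04 and Afp -2.93 with wt added, and with the label number as a covariate Alb was -4.77 and Gc 2.90. Calls were lost for Afm with limma on log2(RPKM + 1) at -1.69, and for Serpina1b with that setting at 1.15, with the label term at 9.13 and with wt added at 3.56. The summed Serpina1 copies gave 1.19, 9.19 and 3.63 there. With 1 library left out the log2 fold changes ran from -5.82 to -3.57 for Alb, from -3.33 to -1.63 for Afp, from -5.003 to -2.72 for Afm, from 1.40 to 4.203 for Gc, from -3.11 to -1.98 for Fetub, from 8.26 to 9.31 for Serpina1b, from 8.36 to 9.37 for the Serpina1 sum, from -9.01 to -7.45 for Ambp, which could not be fitted without scr 50-1, and from -1.49 to -1.24 for Midn, whose FDR was 0.0525 without knockdown 50-2 (edgeR). The fitted values for Serpina1b and the sum depend on the prior count, since scr is at 0, and are no fold sizes. A fit with 1 scr library left assumes that it varies like the knockdown libraries. No paired analysis was possible because no full replicate label recurs in both groups; their shared number, 25 or 50, entered as the covariate above. Ahsg and Serpina1a were below the filter, and an exact permutation test of the Afp to Alb ratio cannot reach a p under 0.05 with 3 against 2 libraries.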

Other observations

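Outside the cluster on chromosome 5, neighbours within 500 kb of the other plasma protein genes were called in both directions, as counted from a fixed distance and with nothing tested beyond each gene. Towards the edge of the window around Serpina1a, 384.3 and 399.5 kb from it, the serpin genes Serpina3h and Serpina3i, relatives of alpha-1 antichymotrypsin, were higher. Both passed the RPKM filter through knockdown libraries alone, so their entry into the test already required a difference. Serpina3h stood at 0.0331 RPKM in scr 25-2 and 0.0171 RPKM in scr 50-1, against 2.67, 4.06 and 9.30 in knockdown 25-3, 50-2 and 50-5 (FDR 0.0116, edgeR quasi-likelihood test). Serpina3i had 0 and 0.0160 in scr against 0.346, 0.748 and 1.43 in knockdown (FDR 0.0284, edgeR). Both were highest in knockdown 50-5, the library in which Serpina1b was lowest of the 3. Serpina3 genes are a family of similar copies, and the division of reads among them was not examined, so their values are uncertain. On the same chromosome Ifi27, an interferon-induced gene, was lower, with 29.5 and 45.7 in scr against 8.62, 8.10 and 11.5 in knockdown (log2 fold change -2.01, FDR 0.0133, edgeR).

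Near Ambp, Akna, which encodes an AT-hook protein of the centrosome, had an RPKM of 0.738 and 0.583 in scr against 3.25, 3.50 and 3.79 in knockdown 25-3, 50-2 and 50-5 (log2 fold change 2.40, FDR 0.00755, edgeR), and it too passed the filter through knockdown libraries alone. Atp6v1g1, a subunit of the vacuolar proton pump, was also higher (log2 fold change 0.89, FDR 0.0283, edgeR), and the collagen gene Col27a1 was lower (log2 fold change -1.19, FDR 0.0351, edgeR). Unlike Ambp, Akna had nearly equal values in both scr libraries. Near the fetuin genes, the translation factor gene Eif4a2 was lower (log2 fold change -0.62, FDR 0.0473, edgeR) and so was Kng1, which passed the filter through scr alone, with 0.187 RPKM in scr 25-2 against 1.68 RPKM in scr 50-1, so that its level, like that of Fetub, was higher in scr 50-1.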
